A study of Oryza sativa with 12 samples.

Results

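In rice seedling roots, 63 loci of the 55801 LOC_Os rows in the count table had reads in every wild type library and next to none in an RNAi line against OsPEP1. They were chosen by their own counts. Each had at least 1 CPM (counts divided by the library total and multiplied by 1000000) in all 6 wild type libraries and at most 2 reads in each of the 6 RNAi libraries. The difference between the genotypes at these loci is therefore how they were found, and it is described here without a test. The response to PEP1 within the wild type and the behaviour of neighbouring loci were not used to choose them and were tested.

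The libraries came from roots of 7-day-old seedlings of cultivar XS134. There were 4 groups of 3 libraries: OsPEP1 RNAi transgenic line 1 given 1 µM PEP1, the same line given ethanol, wild type given 1 µM PEP1, and wild type given ethanol. All RNAi libraries came from this single line, and the promoter of the RNAi construct is not given in the sources used here. The labels call PEP1 an exogenous signal and give no locus for OsPEP1, so the level of the targeted gene was not analysed here. Whether replicate libraries stem from separate plants or cultures is not stated, and p-values therefore measure only their spread, which may be technical.

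In RNA interference a plant makes small RNAs from an introduced hairpin, and these guide the cutting of transcripts that match them, so the target's RNA is reduced while the gene itself remains. A LOC_Os identifier gives the chromosome and a number that rises along it, so sorting the identifiers places loci beside their neighbours. Rice chromosomes 11 and 12 are known for dense clusters of disease resistance genes and for a shared duplicated segment near one end, where near-identical copies make reads hard to assign. The identifiers are used here without gene names, because none of the 63 was paired with a symbol in the table or in the RefSeq gene list.

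Library totals ranged from 15368736 to 21317008 counts. Of 8 marker loci paired with symbols from general knowledge of rice, 6 had that symbol at a matching place in RefSeq. All 4 root loci had reads in every library, and the silicon transporter Lsi1 had 415 to 2051 CPM. The summed level of 4 green shoot loci, which include the 2 that were not matched, lay between 56.1 and 749.7 CPM in RNAi PEP1, 11.9 and 66.5 CPM in RNAi ethanol, 81.0 and 187 CPM in wild type PEP1, and 24.8 and 285 CPM in wild type ethanol. Its part in the results below was not tested. As these are whole roots, fewer cells of a type and less RNA per cell cannot be told apart.

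The name "wild type only" held strictly for 45 of the 63 loci, which had no read in any RNAi library. The other 18 had a few, 8 of them in a single RNAi library. Summed over the 63 loci, the 6 RNAi libraries held 52 reads and the 6 wild type libraries 113144. As CPM of the library totals this came to 0.375, 0.298 and 0.396 in RNAi PEP1 replicates 1 to 3, 0.533, 0.436 and 0.744 in RNAi ethanol, 947, 1034 and 934 in wild type PEP1, and 1091, 1193 and 1184 in wild type ethanol. No RNAi library came near a wild type one, which the rule itself ensures. For the 45 loci without RNAi reads, 3 counts over the 6 RNAi libraries (0.0261 CPM) set a floor. Against it the RNAi level was lower by at least 51.8-fold to at least 2767-fold, with a median bound of 298-fold. Floors cover counting error only.

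**Figure D1:**
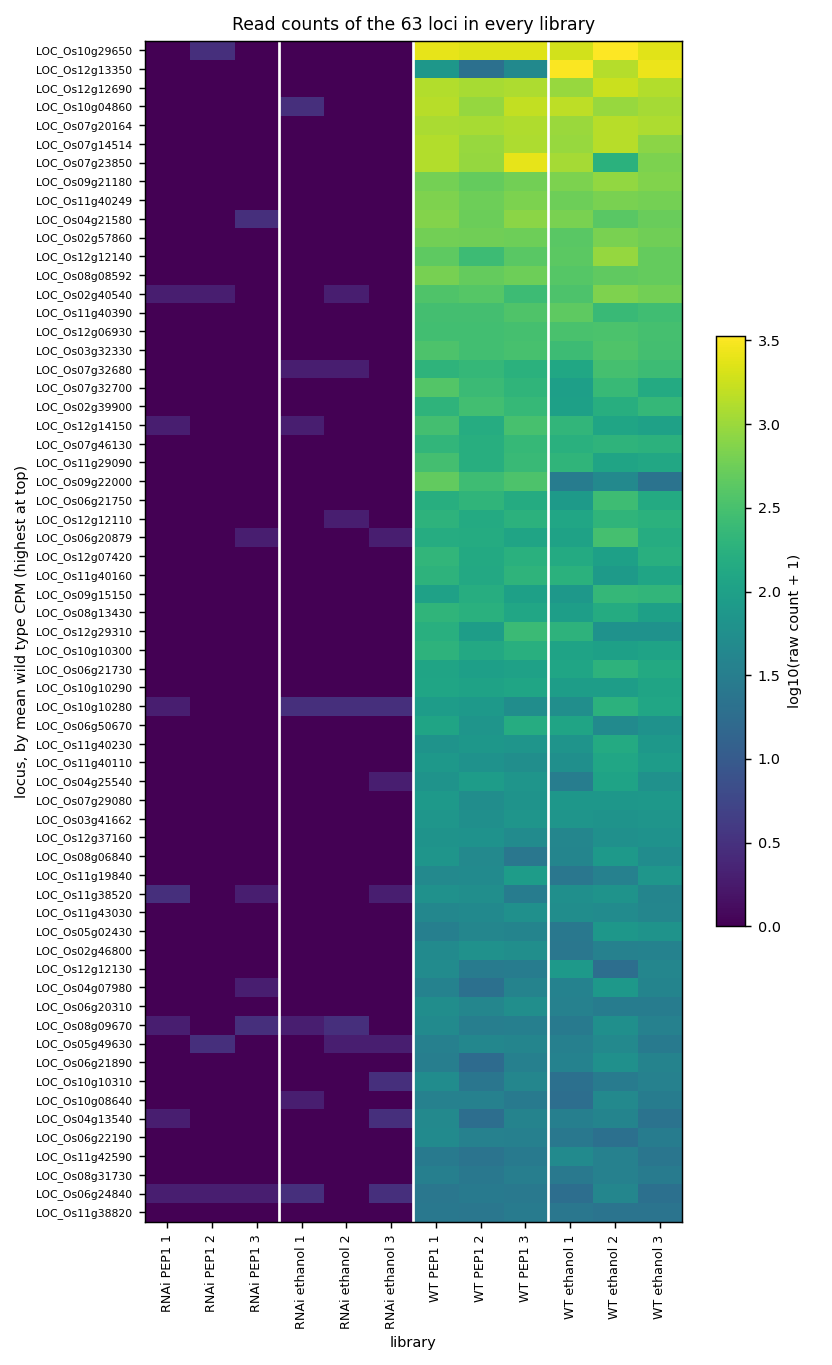
Raw counts of the 63 loci (rows, highest mean wild type CPM at the top) in the 12 libraries (columns, by group and replicate), coloured by log10(count + 1). The 6 RNAi columns hold 0 to 2 reads at every locus, and the low cells of LOC_Os12g13350 under PEP1 and of LOC_Os09g22000 under ethanol stand out in the wild type columns.

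Most of the loci were weakly to moderately expressed. Levels here are CPM after TMM scaling of the libraries. Over the 6 wild type libraries the mean level of a locus ran from 1.35 to 137 CPM with a median of 7.54 CPM. The median was 21.8 CPM over all 19799 LOC_Os rows that had at least 1 CPM in each wild type library. Of the 63 loci, 26 averaged under 5 CPM, 13 had 5 to 10 CPM, 17 had 10 to 50 CPM and 7 had more. CPM is not corrected for gene length, so these are levels of reads and not of transcripts.

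LOC_Os10g29650 was the most abundant. It had 0, 2 and 0 reads in RNAi PEP1, 0 in each RNAi ethanol library, 2488, 2268 and 2270 in wild type PEP1, and 1910, 3360 and 2313 in wild type ethanol. LOC_Os12g12690 had no RNAi read, 1297, 1168 and 1239 reads in wild type PEP1 and 957, 1771 and 1316 in wild type ethanol. In both the wild type treatments overlapped, and ethanol replicate 2 was highest. LOC_Os07g20164 had no RNAi read, 1205, 1169 and 1286 reads in wild type PEP1 and 999, 1388 and 1252 in wild type ethanol. LOC_Os07g14514 likewise had none in the RNAi line, 1314, 974 and 1221 in wild type PEP1 and 973, 1388 and 826 in wild type ethanol. These levels were close to each other, at 68.3 ± 8.59 CPM for the first and 62.3 ± 10.9 CPM for the second (SD over 6 wild type libraries).

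LOC_Os10g04860 had 2 reads in RNAi ethanol replicate 1 and none in the other RNAi libraries, 1385, 938 and 1602 in wild type PEP1 and 1488, 952 and 1113 in wild type ethanol. LOC_Os04g21580 had 2 reads in RNAi PEP1 replicate 3 only, 737, 539 and 809 in wild type PEP1 and 647, 422 and 527 in wild type ethanol. LOC_Os11g40249 varied least of the 63 in relation to its mean, with no RNAi read, 697, 553 and 672 reads in wild type PEP1 and 567, 646 and 612 in wild type ethanol. After scaling, its highest wild type library was 1.16 times its lowest.

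LOC_Os07g23850 varied more. With no RNAi read, it had 1312, 944 and 2488 reads in wild type PEP1 and 1129, 180 and 677 in wild type ethanol, so that ethanol replicate 2 was far below the rest and PEP1 replicate 3 above them. Across the 63 loci the ratio of the highest to the lowest wild type library had a median of 2.17, against 1.77 over the 19799 rows. It was below 2 at 27 loci and at least 5 at 3. Wild type ethanol replicate 2 gave the highest value at 32 of the 63 loci (50.8%) and at 30.2% of the 19799 rows.

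Among the less abundant loci, LOC_Os02g57860 had no RNAi read, 602, 577 and 552 reads in wild type PEP1 and 426, 648 and 569 in wild type ethanol. LOC_Os12g06930 had no RNAi read, 283, 289 and 305 in wild type PEP1 and 321, 333 and 310 in wild type ethanol. The weakest, LOC_Os11g38820, had no RNAi read either, 25, 24 and 28 in wild type PEP1 and 24, 22 and 22 in wild type ethanol. Weak loci were thus not always variable ones.

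Reads in 3 or more RNAi libraries were found at 6 loci, of which LOC_Os06g24840 had them in 5. It had 1, 1 and 1 in RNAi PEP1, 2, 0 and 2 in RNAi ethanol, 24, 27 and 26 in wild type PEP1 and 18, 41 and 19 in wild type ethanol. LOC_Os02g40540 was the most abundant of the 6, with 1, 1 and 0 in RNAi PEP1, 0, 1 and 0 in RNAi ethanol, 359, 388 and 262 in wild type PEP1, and 347, 692 and 589 in wild type ethanol. At the other 4 the wild type mean was 2.06 to 5.47 CPM. At LOC_Os06g24840 the gap between the genotypes was narrow in counts, and at LOC_Os02g40540 it was wide.

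At the edges of the rule, the loci admitted with the least wild type signal were LOC_Os12g12130, LOC_Os06g21890 and LOC_Os10g08640, whose lowest wild type libraries had 1.04, 1.04 and 1.06 CPM. Just outside were LOC_Os11g35660, LOC_Os12g10290 and LOC_Os06g25150, at 0.877, 0.831 and 0.823 CPM, with at most 1 read in any RNAi library. On the RNAi side, LOC_Os06g24840, LOC_Os10g10280 and LOC_Os08g09670 were admitted with 2 reads in their highest RNAi library and 6 to 7 reads in all. LOC_Os06g21820, LOC_Os11g42720 and LOC_Os12g36400 fell just outside with 3 reads in 1 RNAi library. The loci left out on this side were not all weak. LOC_Os06g21820 had 3254, 1473 and 3498 reads in wild type PEP1 and 1387, 1077 and 828 in wild type ethanol. In total 13 loci with enough wild type signal missed by having 3 to 5 reads in their highest RNAi library.

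Few of these loci passed the test for a PEP1 response in the wild type, and few of all genes did. With 3 libraries per group, not passing does not show that a locus was unchanged. All 63 passed the filter on low counts, which they did through the wild type libraries, since the rule asked for reads there. In edgeR's quasi-likelihood test over 25602 genes, 1 of the 63 was higher and 1 lower under PEP1 (1.59% each), while 2.54% of all tested genes were higher and 2.66% lower (5.19% in either direction). Both shares of the loci were near or under those of all genes. An unadjusted p under 0.05 was reached by 6 of the 63. The share of all genes at that threshold is not given here, so nothing is read from this count. The rule does not use the direction of the PEP1 difference, but it leaves out any locus that came close to 0 under either treatment.

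LOC_Os12g13350 fell. It had 72, 19 and 46 reads in wild type PEP1 and 3166, 1358 and 2666 in wild type ethanol, and none in the RNAi line under either treatment. In CPM this was 2.31 ± 1.21 under PEP1 and 145 ± 59.1 under ethanol (SD, n = 3 each). The log2 change was -5.95 ± 0.54 (SE), with an edgeR adjusted p of 0.00173. The treatments did not overlap, and the highest PEP1 library, at 3.54 CPM, stood far under the lowest ethanol library, at 80.1 CPM.

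LOC_Os09g22000 rose. It had 484, 267 and 349 reads in wild type PEP1, 29, 45 and 21 in wild type ethanol and none in the RNAi line. The levels were 18.9 ± 4.26 CPM under PEP1 and 1.90 ± 0.711 CPM under ethanol (SD, n = 3 each). The log2 change was 3.31 ± 0.36 (SE), with an edgeR adjusted p of 0.00370. All 3 PEP1 libraries were above all 3 ethanol libraries. For both loci the call held under all 19 alternatives of library, scaling, filter, design and tool that were run.

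The remaining 61 loci had log2 changes between -0.94 and 1.01 and did not pass. Over all 63 the median log2 change was -0.14, 20 changes were positive and 43 negative, and the median over all genes tested was 0.00. Changes below 0.5 in size were found at 42 loci. LOC_Os09g21180 came closest to the threshold. It had no RNAi read, 619, 499 and 600 reads in wild type PEP1 and 677, 905 and 711 in wild type ethanol, that is 29.9 ± 0.495 CPM in wild type PEP1 and 45.8 ± 6.56 CPM in wild type ethanol (SD, n = 3 each). Its log2 change was -0.62 ± 0.15 (SE, edgeR adjusted p = 0.0710), and it passed in 3 of the 19 alternatives. LOC_Os12g12140 had the lowest change among the loci that did not pass, at 19.2 ± 3.24 CPM under PEP1 and 37.0 ± 15.9 CPM under ethanol (edgeR adjusted p = 0.168).

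Without regard to the test, the 3 PEP1 libraries all lay below the 3 ethanol libraries at 12 loci (19.0%) and all above at 4 (6.35%). Among all tested genes these shares were 10.8% and 10.1%. The summed level of the 63 loci was also lower under PEP1, and the treatments did not overlap in it. Without LOC_Os12g13350 they did, at 943, 1033 and 932 CPM in wild type PEP1 and 905, 1115 and 1017 in wild type ethanol.

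**Figure D2:**
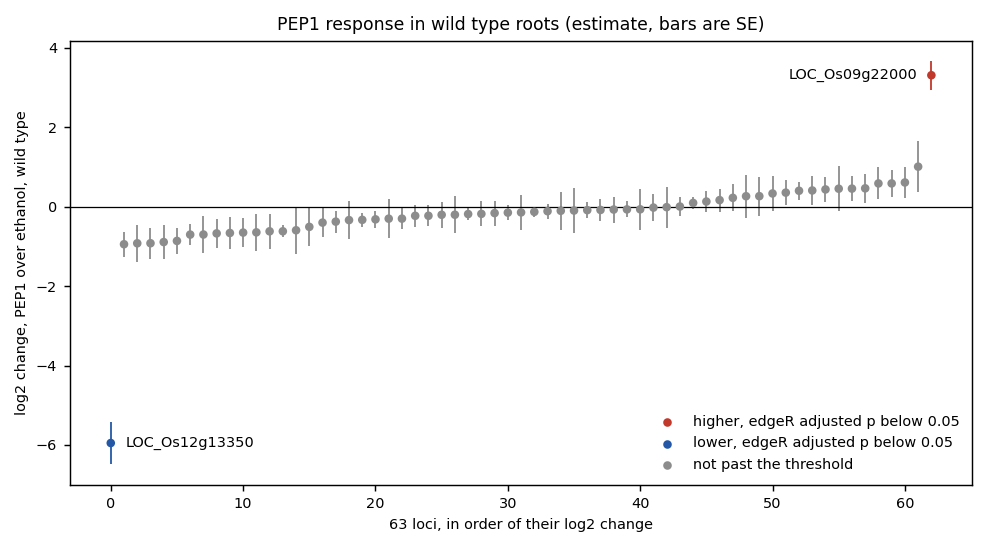
Log2 change of each of the 63 loci in wild type roots, PEP1 over ethanol (points, bars are SE from edgeR), in order of size. LOC_Os12g13350 (-5.95) and LOC_Os09g22000 (3.31) passed at an adjusted p below 0.05, and the other 61 lay between -0.94 and 1.01.

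The loci were spread unevenly over the chromosomes. Chromosome 11 held 11, chromosome 12 held 10, chromosome 6 held 8, chromosomes 7 and 10 held 7 each, and chromosome 1, the one with the most loci in the table, held 0. Chromosomes 11 and 12 together had 21 of the 63 (33.3%) but 10.7% of the 19799 rows with steady wild type reads. With the locus order of a chromosome scaled from 0 to 1, the first member stood at 0.411 on chromosome 11 and at 0.141 on chromosome 12. Whether any member lay in the duplicated segment was not tested. The reverse pattern, at least 1 CPM in every RNAi library and at most 2 reads in every wild type library, was met by 59 loci. These made up 0.300% of the 19669 rows with at least 1 CPM in all RNAi libraries, and the 63 made up 0.318% of the corresponding wild type rows. Of the 59, 27 (45.8%) lay on chromosomes 11 and 12, with 19 on chromosome 11. Both patterns thus occurred in near-equal number.

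**Figure D3:**
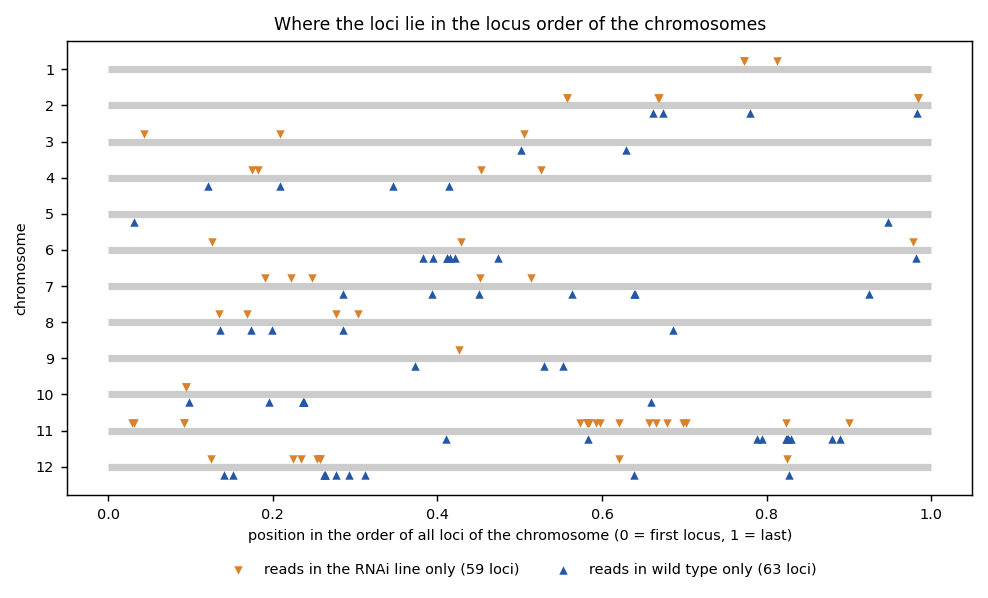
Place of each locus with reads in wild type only (63, triangles below the bar) or in the RNAi line only (59, triangles above it) in the order of all loci of its chromosome. Chromosome 1 holds none of the 63, while chromosomes 11 and 12 hold 21 of them and 27 of the 59.

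Some of the loci were neighbours. Taking a run as members with at most 5 other loci between successive ones, 15 of the 63 (23.8%) fell into 5 runs, on chromosomes 6, 7, 10, 11 and 12, and 8 stood directly beside another member. Of the 59 reverse loci, 18 (30.5%) fell into 8 runs of at most 3. The median distance from a member to the nearest other member was 79 positions in the locus order, and 33 members had one within 100 positions.

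The run on chromosome 10 was made of 4 successive loci, LOC_Os10g10280, LOC_Os10g10290, LOC_Os10g10300 and LOC_Os10g10310. LOC_Os10g10280 had 1, 0 and 0 reads in RNAi PEP1, 2, 2 and 2 in RNAi ethanol, 88, 78 and 52 in wild type PEP1 and 55, 181 and 122 in wild type ethanol. LOC_Os10g10290 had no RNAi read, 117, 108 and 119 in wild type PEP1 and 92, 92 and 115 in wild type ethanol. LOC_Os10g10300 had no RNAi read, 189, 134 and 168 in wild type PEP1 and 111, 101 and 109 in wild type ethanol. The first of these was more variable in the wild type than the other two. LOC_Os10g10310 had 2 reads in RNAi ethanol replicate 3 alone, 51, 23 and 41 in wild type PEP1 and 19, 28 and 35 in wild type ethanol. The nearest tested loci outside the run were alike in the genotypes. LOC_Os10g10244, 3 positions before it, had 126 CPM in the RNAi line and 143 CPM in the wild type, and LOC_Os10g10360, 4 positions after it, had 17.7 and 18.4 CPM, and neither passed the genotype tests.

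On chromosome 11 the run from LOC_Os11g40110 to LOC_Os11g40249 had 4 members among 13 loci. None of the 4 had an RNAi read. LOC_Os11g40110 had 76, 61 and 54 reads in wild type PEP1 and 56, 122 and 89 in wild type ethanol, and LOC_Os11g40160 had 187, 132 and 198 in wild type PEP1 and 179, 83 and 117 in wild type ethanol. LOC_Os11g40230 had 64, 72 and 69 in wild type PEP1 and 66, 142 and 76 in wild type ethanol, next to LOC_Os11g40249, described above. This run also held the opposite pattern. LOC_Os11g40130, between the first and second members, had 209, 166 and 214 reads in RNAi PEP1, 152, 168 and 124 in RNAi ethanol and none in any wild type library. Another member, LOC_Os11g40390, lay 13 positions further on with 17.9 ± 4.84 CPM in the wild type (SD, 6 libraries).

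The chromosome 12 run had LOC_Os12g12110, LOC_Os12g12130 and LOC_Os12g12140 among 5 loci. LOC_Os12g12110 had 1 read in RNAi ethanol replicate 2 only, 188, 141 and 181 in wild type PEP1 and 120, 202 and 180 in wild type ethanol. LOC_Os12g12130 had no RNAi read, 50, 28 and 29 in wild type PEP1 and 80, 18 and 40 in wild type ethanol, and LOC_Os12g12140 had none in the RNAi line, 441, 262 and 415 in wild type PEP1 and 431, 938 and 488 in wild type ethanol. Both other loci of this stretch were also lower in the RNAi line. LOC_Os12g12115 had no RNAi read and 11 to 27 reads in each wild type library, and LOC_Os12g12120 had 0 to 3 reads in each RNAi library and 11 to 34 in each wild type library.

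On chromosome 6, LOC_Os06g21730 had no RNAi read, 112, 97 and 104 reads in wild type PEP1 and 117, 189 and 139 in wild type ethanol. LOC_Os06g21750, 2 positions on, had no RNAi read, 161, 199 and 146 in wild type PEP1 and 83, 271 and 144 in wild type ethanol. The locus between them, LOC_Os06g21740, and the one after, LOC_Os06g21760, had no RNAi read either. They were left out of the 63 because some wild type library was under 1 CPM. LOC_Os06g21740 had 69, 65 and 61 reads in wild type PEP1 and 24, 11 and 58 in wild type ethanol.

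The chromosome 7 pair ended beside the locus with the largest log2 difference among the neighbours called lower. LOC_Os07g32680 had 1 read in each of RNAi ethanol replicates 1 and 2, 194, 221 and 175 in wild type PEP1 and 127, 306 and 258 in wild type ethanol. LOC_Os07g32700 had no RNAi read, 378, 256 and 200 in wild type PEP1 and 98, 237 and 143 in wild type ethanol. Directly after it, LOC_Os07g32710 had 2, 1 and 2 reads in RNAi PEP1, 12, 0 and 0 in RNAi ethanol, 18960, 15279 and 13386 in wild type PEP1, and 8667, 16645 and 13197 in wild type ethanol. It exceeded every one of the 63 in abundance, and the 12 reads of 1 RNAi library kept it out. The log2 difference, RNAi over wild type, was -13.19 ± 0.84 under PEP1 (SE, edgeR adjusted p = 7.09e-06) and -11.73 ± 0.77 under ethanol (edgeR adjusted p = 8.00e-06).

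**Figure D4:**
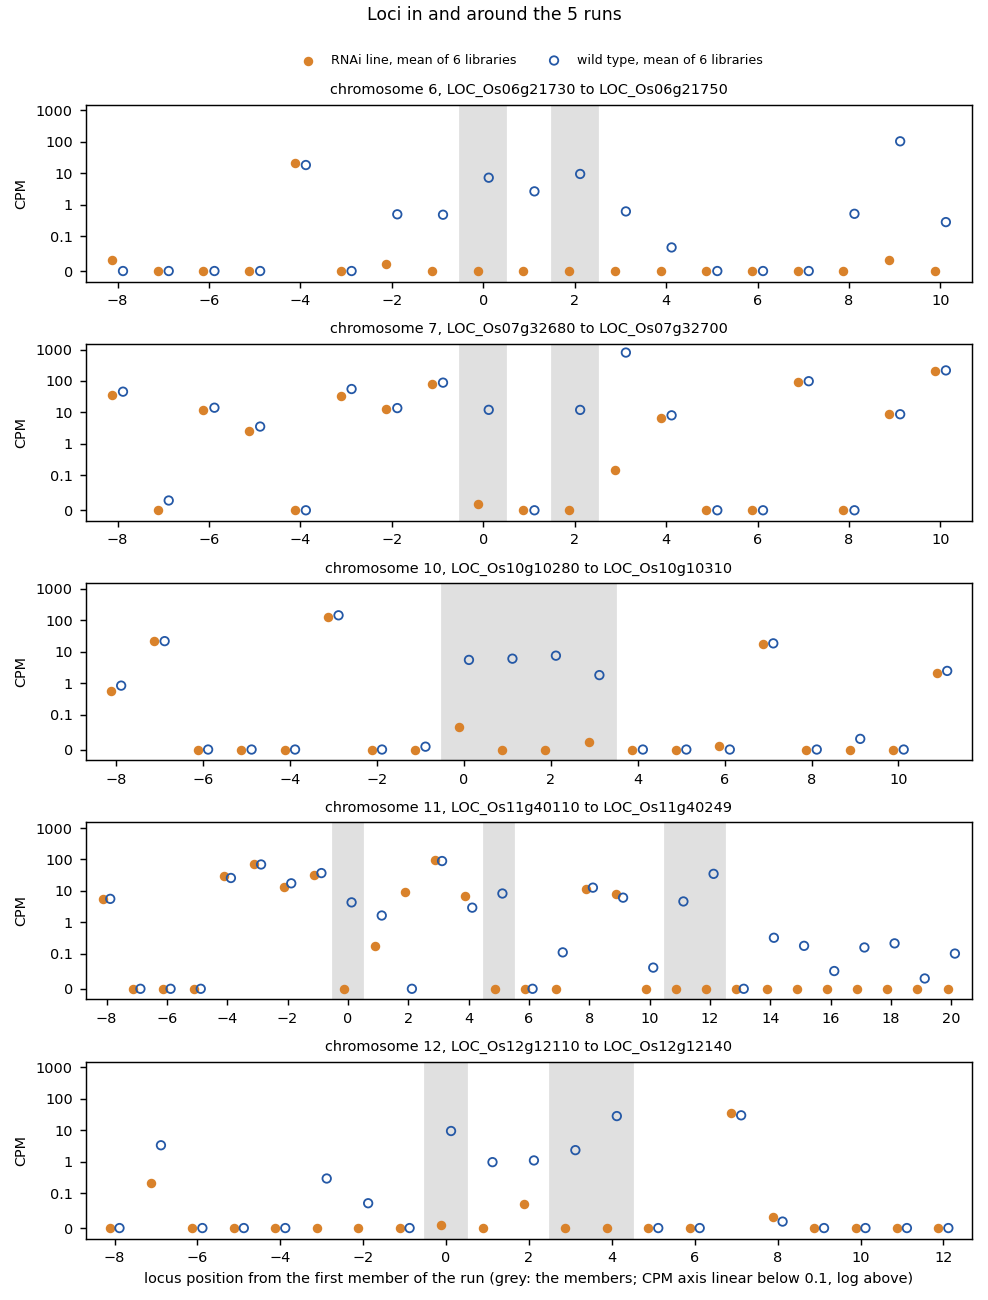
Mean CPM over 6 RNAi libraries (filled) and 6 wild type libraries (open) for the loci in and around the 5 runs, by position from the first member; members are shaded, and the CPM axis is linear below 0.1 and logarithmic above. Filled points sit at or near 0 at every member. Around the chromosome 7 and 10 runs, and before the chromosome 11 run, most expressed loci have filled and open points at similar heights. After the chromosome 11 run, LOC_Os11g40284 to LOC_Os11g40340 have filled points at 0 and open points between 0.0295 and 0.325 CPM. Inside that run the loci that are not members vary, and LOC_Os11g40130 has a filled point alone.

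Loci next to the 63 differed between the genotypes more often than genes at large. Within 5 positions on either side of a member lay 543 other loci, of which 210 had no read in any library. Of the 543, 213 passed the filter on low counts. A neighbour with no RNAi read passed it through the wild type libraries alone, so it could be called only lower. The converse held for neighbours with no wild type read, and the same limits held for every gene tested. Under ethanol 28 of the 213 (13.1%) were lower in the RNAi line and 20 (9.39%) higher, against 1.63% and 2.16% of all 25602 genes tested (3.79% in either direction). Under PEP1 26 (12.2%) were lower and 19 (8.92%) higher, against 1.14% and 1.52% of all genes (2.65% in either direction). The background counts include the 63 themselves. These treatments share no library, and 23 of the neighbours were lower and 17 higher under both, with 0 called in opposite directions. The median log2 difference of the neighbours was -0.08 under each treatment, and 168 of them (78.9%) under PEP1 and 165 (77.5%) under ethanol were not called. Some of these neighbours came close to meeting the rule. More than 2 reads in every wild type library and at most 2 in every RNAi library were found at 14 of the 543. The opposite, more than 2 reads in every RNAi library and at most 2 in every wild type library, was found at 11. The shares of all loci with these patterns are not given here.

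The difference was greatest close to the members and declined with distance. Among the 47 tested loci 1 position away, 16 (34.0%) were lower in the RNAi line under each treatment. Of the 47, 0 were higher under PEP1 and 2 (4.26%) under ethanol. Those without RNAi reads could be called only lower. At 3 to 5 positions the order turned, with 4.07% lower and 13.0% higher under PEP1 and 5.69% lower and 13.0% higher under ethanol (123 loci). At 6 to 10 positions 5.75% were lower under each treatment, with 6.90% higher under PEP1 and 8.05% under ethanol (174 loci). At 21 to 50 positions 1.94% were lower and 2.80% higher under PEP1, and 2.59% and 3.34% under ethanol (928 loci). These shares were still above those over all genes. Beyond 100 positions, or on a chromosome without a member, 0.488% were lower and 1.09% higher under PEP1 (21507 loci). Under ethanol these shares were 1.02% and 1.78%.

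**Figure D5:**
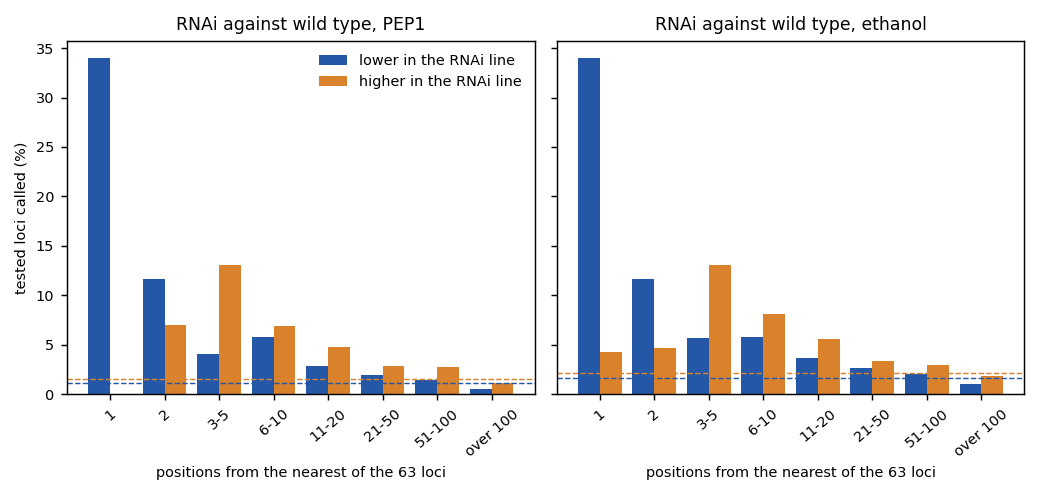
Share of tested loci other than the 63 that were lower or higher in the RNAi line (edgeR adjusted p below 0.05), by their distance in locus positions from the nearest of the 63, under PEP1 (left) and ethanol (right); dashed lines give the shares over all tested genes. The share called lower is 34.0% beside a member in both panels and falls towards the dashed line with distance.

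The nearest tested locus on each side was also looked up, passing over other members, which placed it up to 25 positions away. At 30 of the 63 neither of these passed a genotype test, among them the 4 loci of the chromosome 10 run and LOC_Os11g40160. At 27 loci 1 side passed in at least 1 treatment, and at 6 both sides did. Passing was counted in either direction, and the share for other loci is not given here. LOC_Os02g39900, picked as an instance after the values were seen, was of the first kind. It lay between LOC_Os02g39890, with 60.0 CPM in the RNAi line and 64.5 CPM in the wild type, and LOC_Os02g39910, with 11.8 and 11.4 CPM. LOC_Os07g29080, picked likewise, was of the last. LOC_Os07g29070 and LOC_Os07g29090 on its sides had no RNAi read, and their wild type means were 0.613 and 0.885 CPM.

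Among the neighbours lower in the RNAi line, LOC_Os02g40550 and LOC_Os06g21740 each lay 1 position from a member, and LOC_Os07g29060 lay 2 positions away. All had 0 reads in the 6 RNAi libraries. Against the floor of 3 counts over those libraries they were at least 50.4-fold, 103-fold and 46.8-fold lower. LOC_Os12g12115 was at least 37.1-fold lower by the same measure. LOC_Os11g43040, beside LOC_Os11g43030, had no RNAi read, 21, 32 and 32 in wild type PEP1 and 25, 3 and 18 in wild type ethanol. Its call under PEP1 (edgeR adjusted p = 0.0285) was lost in 9 of 19 alternatives.

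Of the 17 neighbours higher in the RNAi line under both treatments, 9 were loci of the reverse pattern. These 9 of the 59 reverse loci lay within 5 positions of 7 members. LOC_Os02g57910, 5 positions after LOC_Os02g57860, had 269, 215 and 303 reads in RNAi PEP1 and 225, 194 and 154 in RNAi ethanol, with no wild type read. LOC_Os11g29140 had 151, 195 and 202 reads in RNAi PEP1 and 196, 237 and 188 in RNAi ethanol, again with no wild type read. With LOC_Os11g29014, LOC_Os11g29030 and LOC_Os11g29050 it surrounded the member LOC_Os11g29090, which had no RNAi read, 294, 164 and 246 in wild type PEP1 and 204, 112 and 128 in wild type ethanol. Both patterns thus alternated within a few positions of chromosome 11.

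LOC_Os12g37110, 5 positions before LOC_Os12g37160, had 146, 92 and 145 reads in RNAi PEP1, 241, 213 and 189 in RNAi ethanol and none in the wild type. LOC_Os07g23900 had 79, 125 and 91 reads in RNAi PEP1, 91, 85 and 81 in RNAi ethanol, and 1 read in wild type ethanol replicate 3 as its only wild type read. It lay 5 positions after LOC_Os07g23850. LOC_Os10g04800, 4 positions before LOC_Os10g04860, did not meet the reverse rule, because wild type PEP1 replicate 3 had 46 reads against 0 or 1 in the other wild type libraries. It had 3259, 2922 and 3083 reads in RNAi PEP1 and 1274, 1026 and 1194 in RNAi ethanol.

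LOC_Os12g13340, directly before LOC_Os12g13350, was looked at because of the PEP1 response of that member, after its values were seen. It had 207, 96 and 135 reads in RNAi PEP1, 302, 193 and 179 in RNAi ethanol, 1003, 405 and 752 in wild type PEP1, and 30372, 29233 and 31555 in wild type ethanol. In the wild type it fell as its neighbour did, to 36.8 ± 12.6 CPM under PEP1 against 1826 ± 87.3 CPM under ethanol (SD, n = 3 each; log2 change -5.63 ± 0.35, SE, edgeR adjusted p = 1.93e-05). The RNAi line had 7.16 ± 2.58 CPM under PEP1 and 12.4 ± 2.64 CPM under ethanol. Unlike LOC_Os12g13350, this locus had reads in every RNAi library. Strand use and the handling of similar copies are not given for these counts. Whether reads were divided between these neighbours was not tested.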

How the data were processed

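For 12 libraries the authors deposited unnormalized read counts in a table of 57265 rows. Libraries were made from Trizol-extracted root RNA with an Illumina TruSeq kit, per the labels' protocols. What aligner, genome build, annotation and strand setting were used is not given in the sources used here. Columns were matched to samples by title. No sequences or coordinates were used here.

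The rule used counts over the column sum. Levels are CPM scaled by TMM. Counts were tested with edgeR 4.0.16 (quasi-likelihood test, all 12 libraries, 4 groups, default filter, Benjamini-Hochberg adjustment over 25602 genes, adjusted p below 0.05) in R 4.3.3, tested on simulated data. The SE is the log2 change divided by the square root of F. Positions are ranks of the LOC_Os identifiers within a chromosome. Alternatives used limma 3.58.1 and DESeq2 1.42.0, and left out libraries. Replicates of every group differed beyond sampling noise (chi-square per degree of freedom of at least 15.0).

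Loci named are the 10 of highest wild type level, those called under PEP1, the runs, those at the edges of the rule, and up to 5 neighbours per genotype comparison and direction, and others were picked after their values were seen. Members and lists were chosen with earlier results of these data known. None of the locus identifiers matched the 39387 genes of RefSeq assembly ASM3414082v1.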

Additional observations from a re-analysis of the deposited data

Results flagged for a closer look

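At LOC_Os12g13340, the neighbour of LOC_Os12g13350, the genotype difference depended on the treatment. The log2 difference, RNAi over wild type, was -2.36 ± 0.31 under PEP1 and -7.20 ± 0.37 under ethanol (SE). The interaction was 4.84 ± 0.43 in log2 (SE, edgeR adjusted p = 0.00684). It was the only one past the threshold among the 213 tested neighbours of the 63 loci. The share of all tested genes past that threshold is not given here, so nothing is read from this number.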

How the results depend on the processing

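The number of loci meeting the rule was 63 and stayed between 63 and 67 when any 1 library was left out. It was 41 with a wild type minimum of 2 CPM and 79 with 0.5 CPM, 45 when no RNAi read was allowed and 76 with up to 5. The reverse pattern held at 59 to 71 loci with 1 library left out. For PEP1 in the wild type, the count over all genes was 1330. It was 2577 with DESeq2, 535 with only the 2 groups compared, 2882 without 3 libraries at once (wild type ethanol replicate 1, RNAi ethanol replicate 2 and RNAi PEP1 replicate 2), and 571 to 2942 with 1 library left out. The counts furthest from 1330 were 2942 without wild type ethanol replicate 1, 571 and 593 without wild type PEP1 replicates 1 and 3, and 731 and 807 without wild type ethanol replicates 3 and 2. Among the 63 loci, 1 was higher under every one of these, and 1 was lower in all but DESeq2 (2), limma-voom (2) and the fit without the 3 libraries (3). The added loci were LOC_Os09g21180 and, without the 3 libraries, LOC_Os02g40540. With 1 library left out, the neighbours called lower in the RNAi line numbered 19 to 29 under PEP1 and 23 to 30 under ethanol, and those called higher 13 to 21 and 15 to 19. Within 2 positions, 3 neighbours were higher under PEP1 and 4 under ethanol, and within 10 positions 31 and 34, by the width of the window. LOC_Os06g21740 lost its call under ethanol in 2 of 19 alternatives. Libraries with the same replicate number did not steadily deviate together (correlations from -0.466 to 0.344), and the main fit used no pairing. These correlations cannot show whether such libraries share a batch. With the replicate block, 1063 genes were called over all genes, 1 of the 63 loci was higher and 1 lower, and the neighbours lower and higher numbered 19 and 16 under PEP1 and 24 and 18 under ethanol. In the RNAi libraries 3 counts stand for 0.141 to 0.186 CPM, the limit that a count of 0 allows in a single library.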

Other observations

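The count table also holds 1464 rows outside the LOC_Os scheme, and 13 of them met the same rule, against 63 of the 55801 LOC_Os rows. The most abundant was Novel00347, with no read in any RNAi library, 4831, 3333 and 5268 in wild type PEP1 and 2772, 2810 and 2556 in wild type ethanol. Novel00374, Novel00375 and Novel00376 bear successive numbers and had no RNAi read either. Novel00374 had 141, 105 and 103 reads in wild type PEP1 and 97, 302 and 167 in wild type ethanol. Novel00203 and Novel00204, also successive, had at most 1 read in any RNAi library. Novel00203 had 531, 514 and 416 reads in wild type PEP1 and 327, 610 and 459 in wild type ethanol. What these numbers say about position is not given in the sources used here.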
